A study of Mus musculus with 32 samples.

Results

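The 37 genes described here encode the enzymes that make cholesterol and fatty acids, the SREBP proteins that switch those enzymes on, and 2 enzymes of the myelin sphingolipids. They were taken by symbol from a list, and all 37 were found among the 25239 genes of the mouse amygdala count tables. By role, 18 belong to sterol synthesis, 5 to SREBP control, 6 to fatty acid synthesis, 6 to elongation, desaturation and activation of fatty acids, and 2 to myelin sphingolipids.

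Total RNA was sequenced from the bilateral amygdala of wild-type mice that had been injected there 24 h earlier. The injection was 4-thiouridine (4sU, 100 mM in DMSO), a uridine analogue that is built into RNA made after it arrives and is read as T-to-C conversions once the RNA is alkylated, or DMSO alone. The 26 libraries fall into 6 groups: baseline without stress (5 with 4sU, 4 with DMSO), acute stress (5 and 5) and chronic stress (4 and 3). All 6 groups had the injection, and the labels used here give no strain, sex, age or kind of stress.

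Cholesterol in the brain is made in place, because the blood-brain barrier keeps out the cholesterol of the plasma. SREBP2, encoded by Srebf2, drives the sterol enzymes, and SREBP1, encoded by Srebf1, drives mainly the fatty acid enzymes. Scap carries both to the site where they are cut and released, and Insig1 and Insig2 hold Scap back when sterols are plentiful. Astrocytes supply much of the cholesterol of adult neurons, and oligodendrocytes use large amounts of cholesterol, long-chain fatty acids and galactolipids for myelin.

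SREBP proteins bind sterol regulatory elements, often beside a CCAAT box bound by NF-Y. Promoter windows of 250 bases before to 50 after the start site, from RefSeq on GRCm38.p6, were at hand for 30 of the 37 genes and not for Sqle, Fdps, Fdft1, Scd1, Scd2, Fads1 and Fa2h. An SRE-type motif, TCACNCCA on either strand, was present in 3 of the 30 windows, against 4.97% of 27025 genes. An SRE-type motif with a CCAAT, on either strand, starting within 50 bases of it was present in the same 3 of the 30 windows. Over all genes it was 0.818%, or 221 of the 1343 genes with an SRE-type motif. CCAAT alone was present in 23 of the 30 windows and in 41.1% of all genes, and it does not overlap the SRE-type motif. The 100 bases that begin at -200 are shown for these 3 genes because they hold both motifs, in capitals. The match is one of letters only.
Hmgcs1: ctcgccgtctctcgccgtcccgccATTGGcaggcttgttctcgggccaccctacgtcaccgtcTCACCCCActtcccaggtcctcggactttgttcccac
Srebf2: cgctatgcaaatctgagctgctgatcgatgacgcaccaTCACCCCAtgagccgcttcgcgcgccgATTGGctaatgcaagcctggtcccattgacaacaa
Msmo1: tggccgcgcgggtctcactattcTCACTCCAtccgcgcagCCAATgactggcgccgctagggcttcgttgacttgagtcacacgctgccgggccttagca
The Hmgcs1 window lies at chr13:119690151-119690250 on the plus strand, that of Srebf2 at chr15:82147069-82147168 on the plus strand and that of Msmo1 at chr8:64733679-64733778 on the minus strand. Hmgcs1 encodes the cytosolic synthase that opens the mevalonate pathway, and Msmo1 a methylsterol oxidase late in it. The SRE-type motif begins at -137 in Hmgcs1, -162 in Srebf2 and -177 in Msmo1.

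The libraries held 16150316 to 21228741 exon counts, of which the 37 genes took 0.491% to 0.811%. Every member had reads in every library, from a lowest count of 169 (Idi1) upwards, and all 37 passed the filter on low counts in every fit. The 10 libraries of baseline and acute 4sU mice stood apart from the other 16. Their reads in 3′ UTRs were 37.1% to 39.7% of the exon counts, against 44.6% to 53.4%, and their oligodendrocyte and myelin markers were lower. Comparisons of one set with the other therefore cannot be told apart from that division, and they are given last. No marker of the cell type lists, neuronal and glial, was at 0 in any library. Acute DMSO library 2 had the highest share of 3′ UTR reads, 53.4%. The summed choroid plexus markers, of a tissue beside the amygdala, ran from 37.1 to 5742 CPM among the 5 acute DMSO libraries.

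Levels are given as CPM, the exon counts scaled to library size with TMM. Per kilobase of exon, Scd2, the main stearoyl-CoA desaturase of brain, was the most abundant member, with a median of 446 CPM per kb over the 26 libraries. Its range was 323 to 691, above every value of every other member. Fads2, a desaturase of polyunsaturated fatty acids, came next at 73.4 CPM per kb, followed by Acly, ATP citrate lyase, at 67.5 and Fads1, the other such desaturase, at 66.2. Hmgcs1 had a median of 65.5 and Scd1 of 62.3 CPM per kb, and the ranges of Fads2, Acly, Fads1, Hmgcs1 and Scd1 over the libraries overlapped. At the other end stood Hsd17b7, a sterol reductase, at 4.75 and Lss, lanosterol synthase, at 6.29 CPM per kb.

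Acute stress against baseline was asked first, in each injection arm and as the mean of both. In the DMSO arm 5 of 37 members rose and 0 fell, against 1.41% and 1.1% of the 15995 genes tested. Of the 5, 3 belong to elongation and activation of fatty acids (Elovl1, Elovl5 and Acsl3) and 2 are the myelin sphingolipid enzymes (Fa2h and Ugt8a). In the 4sU arm 0 members rose or fell, against 0.206% and 0.0625% of all genes, and 1 had an unadjusted p under 0.05. As the mean of both arms 1 member rose, Acsl3, and 0 fell, against 1.48% and 0.913%. With each of the 19 libraries left out in turn, the count in DMSO mice ran from 1, without baseline DMSO library 1, 3 or 4 or acute DMSO library 3 or 4, to 13, without acute DMSO library 2. Elovl1 passed in all 19 of these fits, and Fa2h, Ugt8a, Acsl3 and Elovl5 missed the threshold in 6, 9, 11 and 12 of them. Acsl3 in the mean missed it in 6, with a highest edgeR adjusted p of 0.059. The share of all genes called in these fits is not given here.

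Elovl1, an elongase of very long saturated and monounsaturated fatty acids, stood at 28.4, 28.0, 27.9 and 29.2 CPM in the baseline DMSO libraries and at 35.8, 40.8, 40.8, 37.6 and 31.8 CPM in the acute DMSO libraries. All 5 acute values lay above all 4 baseline values. The log2 fold change was 0.41 ± 0.08 (SE; edgeR adjusted p = 0.0099). In the 4sU arm the values overlapped, at 24.2 to 30.4 CPM at baseline and 25.8 to 28.8 CPM after acute stress, and the log2 fold change was -0.02 ± 0.08.

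Acsl3, which joins long-chain fatty acids to coenzyme A, stood at 204.9, 205.0, 202.4 and 215.8 CPM at baseline and 225.0, 292.4, 265.9, 265.5 and 239.6 CPM after acute stress in DMSO mice. Again no acute value fell within the baseline values. Its log2 fold change was 0.33 ± 0.08 (edgeR adjusted p = 0.038) in DMSO mice, 0.16 ± 0.08 in 4sU mice, where the values overlapped, and 0.25 ± 0.06 as the mean (edgeR adjusted p = 0.024). Elovl5, an elongase of polyunsaturated fatty acids, stood at 118.5, 119.7, 115.8 and 111.0 CPM at baseline and 133.1, 154.2, 181.8, 157.4 and 123.6 CPM after acute stress, with no overlap. Its log2 fold change was 0.38 ± 0.10 (edgeR adjusted p = 0.041). Acat2, Ebp, Sc5d and Insig2, which were not called, also had no overlap in DMSO mice. Such genes were not counted over all genes, so the lack of overlap is not read as a result.

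Ugt8a makes galactosylceramide, the main glycolipid of myelin, and Fa2h makes the 2-hydroxy fatty acids that it carries. Ugt8a stood at 175.3, 191.1, 142.7 and 124.5 CPM in baseline and 213.6, 224.0, 327.2, 271.3 and 190.4 CPM in acute DMSO libraries. Library 5 of the acute group fell just within the baseline values and library 3 was the highest. The log2 fold change was 0.65 ± 0.16 (edgeR adjusted p = 0.04), against 0.01 ± 0.15 in 4sU mice. Fa2h stood at 104.3, 116.7, 104.1 and 87.8 CPM at baseline and 130.6, 178.4, 179.2, 156.9 and 113.7 CPM after acute stress. The groups overlapped in library 5, and the log2 fold change was 0.57 ± 0.14 (edgeR adjusted p = 0.033), against -0.02 ± 0.13 in 4sU mice.

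Markers of oligodendrocytes and myelin moved with these genes. In the DMSO arm 8 of 12 such markers rose and 0 fell, with a median log2 fold change of 0.66, and their summed level was 13502.5 to 17013 CPM at baseline and 18382.5 to 29392 CPM after acute stress, with none of the 12 at 0. In the 4sU arm 0 of 12 rose or fell, and the sums overlapped. Library 3, highest in Ugt8a, Elovl5 and Fa2h, was also highest in that sum, and it was the lowest acute DMSO library in the 8 glutamatergic neuron markers (1130 CPM, against 1881 to 3596 CPM in the other acute DMSO libraries). Acsl3 and Elovl1 were highest in library 2, at 292.4 and 40.84 CPM, against 265.9 and 40.82 CPM in library 3. Fa2h was nearly equal in libraries 2 and 3, at 178.4 and 179.2 CPM. Of 6 oligodendrocyte precursor markers 3 rose, and of 6 endothelial markers 2 fell. The part of these markers in the result was not tested. In bulk tissue fewer cells of a type and less RNA per cell cannot be told apart.

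**Figure D1:**
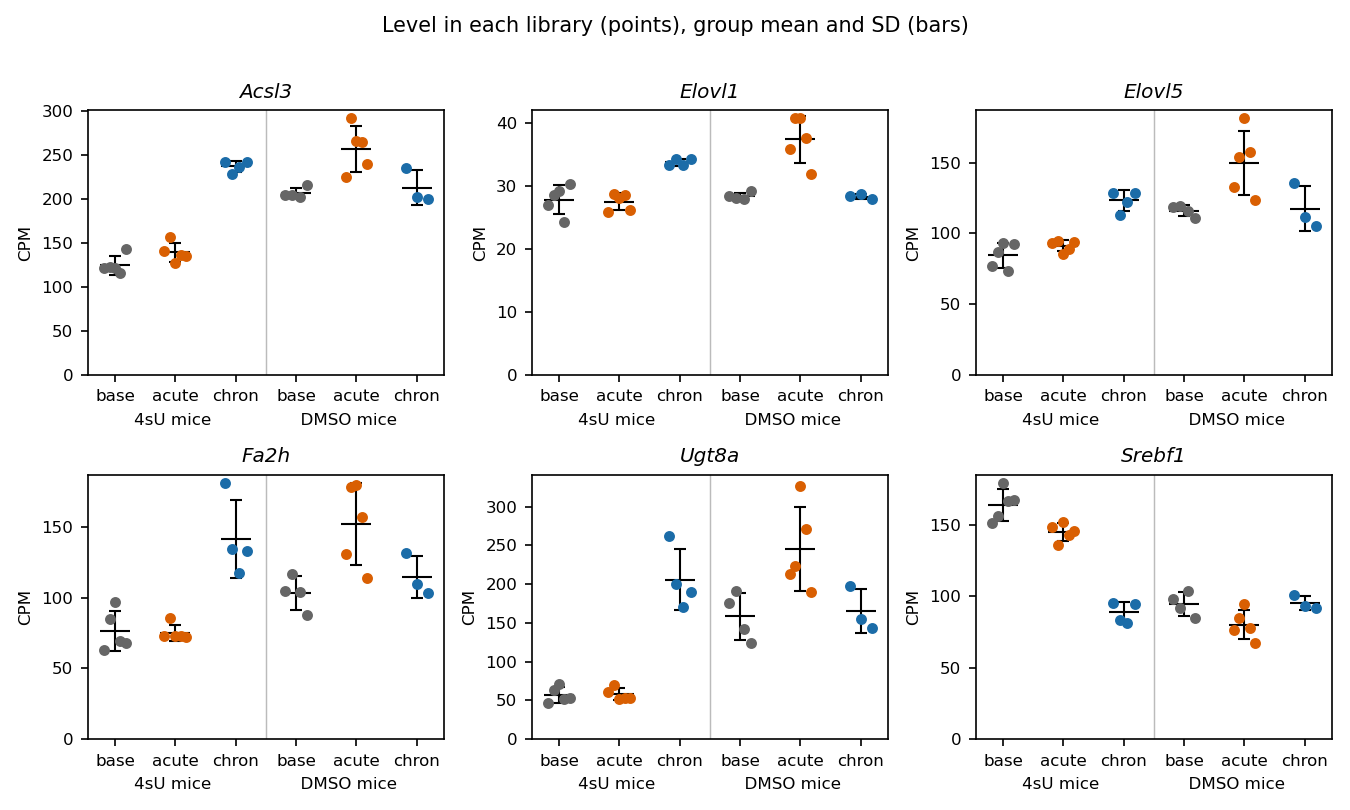
CPM of 6 members in each library (points) with the group mean and SD (bars), for 4sU mice on the left and DMSO mice on the right of each panel; the CPM axes start at 0. The acute DMSO libraries of Acsl3, Elovl1 and Elovl5 all lie above the baseline DMSO libraries, while the 4sU libraries of baseline and acute stress overlap in these genes. Among the members 7 had acute DMSO libraries all above baseline, and such genes were not counted over all genes.

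Among the sterol synthesis genes 0 of 18 passed the test in either arm or in the mean. In DMSO mice 16 of the 18 log2 fold changes were above 0, with a median of 0.22, against a median of 0.02 over all genes tested. Of the 18, 9 had an unadjusted p under 0.05. The like 2 counts over all genes are not given here. Cyp51, lanosterol demethylase, stood at 66.0, 73.2, 61.4 and 60.2 CPM at baseline and 71.6, 114.8, 77.0, 82.8 and 78.8 CPM after acute stress, a log2 fold change of 0.40 ± 0.11 (edgeR adjusted p = 0.057). Library 2 was the highest. That library also lay far above the other acute DMSO libraries in Acat2, Mvk, Pmvk, Fdps, Fdft1, Msmo1 and Ebp, and below them in Lss. Fdps, for one, had 78.9 CPM there, 30.6 to 35.2 CPM in the others and 33.9 to 38.2 CPM at baseline. The count above 0 and the median without library 2 are not given here, so how far they rest on it cannot be read. Sc5d, lathosterol oxidase, had 0.25 ± 0.08 and Mvd, which makes isopentenyl pyrophosphate, 0.35 ± 0.13 on the log2 scale (edgeR adjusted p = 0.086 and 0.19). Mvd stood at 23.6 CPM in acute DMSO library 2 and at 12.4 to 17.6 CPM in the others of that group.

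Acute DMSO library 2 lay apart from the other 4 libraries of its group in 10 of the 37 members, a count not given here for all genes. It stood apart over all genes too. Pairs of libraries were compared in exon counts by chi-square per degree of freedom. The pairs with library 2 had 82.4 to 112.6, and the other pairs of acute DMSO libraries 12.3 to 48.4. Library 2 also held the highest choroid plexus sum, 5742 CPM. Fdps, farnesyl pyrophosphate synthase, stood at 78.9 CPM in library 2 and at 30.6 to 35.2 CPM in the others, and Pmvk, phosphomevalonate kinase, at 45.6 against 22.9 to 23.9 CPM. Fasn, fatty acid synthase, went the other way, at 150.4 against 263.6 to 274.6 CPM. Without this library 13 members rose in DMSO mice and 0 fell: the 5 above and Acat2, Hmgcs1, Cyp51, Sc5d, Insig2, Elovl6, Scd2 and Fads1. The share of all genes called in that fit is not given here, so whether the larger count is particular to the members cannot be read from it. Without it Cyp51 had a log2 fold change of 0.28 (edgeR adjusted p = 0.029) and Hmgcs1 of 0.23 (edgeR adjusted p = 0.042).

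Among the SREBP control genes 0 of 5 passed the test. Srebf1 stood at 97.8, 91.4, 103.8 and 84.9 CPM in baseline and 76.1, 84.7, 94.5, 78.0 and 67.1 CPM in acute DMSO libraries. The mean log2 fold change of both arms was -0.20 ± 0.06 (edgeR adjusted p = 0.094), with -0.18 in 4sU and -0.22 in DMSO mice, and without acute DMSO library 2 it was -0.20 (edgeR adjusted p = 0.041). Insig2 had 0.23 ± 0.06 in DMSO mice (edgeR adjusted p = 0.055) and -0.05 ± 0.06 in 4sU mice. Scap had a mean log2 fold change of -0.08, Srebf2 of -0.05 and Insig1 of 0.10.

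In fatty acid synthesis 0 of 6 genes passed the test. Scd2 stood at 2606, 2569, 2586 and 2249 CPM in baseline and 2619, 2431, 3767, 3244 and 2723 CPM in acute DMSO libraries, with overlap and with library 3 highest. Scd1 had a mean log2 fold change of 0.20 ± 0.09, Scd2 of 0.16 ± 0.07 and Elovl6, the elongase of palmitate, of 0.17 ± 0.09 (edgeR adjusted p = 0.35, 0.33 and 0.46). The 3 others, Acly, Acaca and Fasn, lay between -0.01 and 0.10. Fads1 and Fads2 had mean log2 fold changes of 0.14 ± 0.04 and 0.11 ± 0.05 (edgeR adjusted p = 0.085 and 0.32).

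Over all 37 members 31 of the mean log2 fold changes were above 0, with a median of 0.15, against 8678 of 15995 and a median of 0.01 over all genes. The difference between the 2 arms was tested for each gene. It passed for 0 members, against 0% of all genes higher and 0% lower. Of the members 7 had an unadjusted p under 0.05, a count not given here for all genes. Elovl1 had the smallest p, at -0.43 ± 0.11 (edgeR adjusted p = 0.45), and the largest in size were Ugt8a, at -0.64 ± 0.22 (4sU minus DMSO, log2), Fa2h, at -0.59 ± 0.19, and Ebp, at -0.52 ± 0.18, with edgeR adjusted p = 0.76, 0.71 and 0.75. That the arms differ was thus not shown.

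Genes of neighbouring pathways were counted too. In DMSO mice 0 of 14 genes of further sterol synthesis, uptake and SREBP processing and 0 of 12 of sterol export, esterification and LXR passed. Of 20 other fatty acid enzymes 1 fell, Acacb, the acetyl-CoA carboxylase at the mitochondrion (log2 fold change -0.71, edgeR adjusted p = 0.024). Of 14 sphingolipid and myelin lipid genes 2 rose, among them Mal (log2 fold change 0.71, edgeR adjusted p = 0.0073), which also stands in the list of myelin markers.

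**Figure D2:**
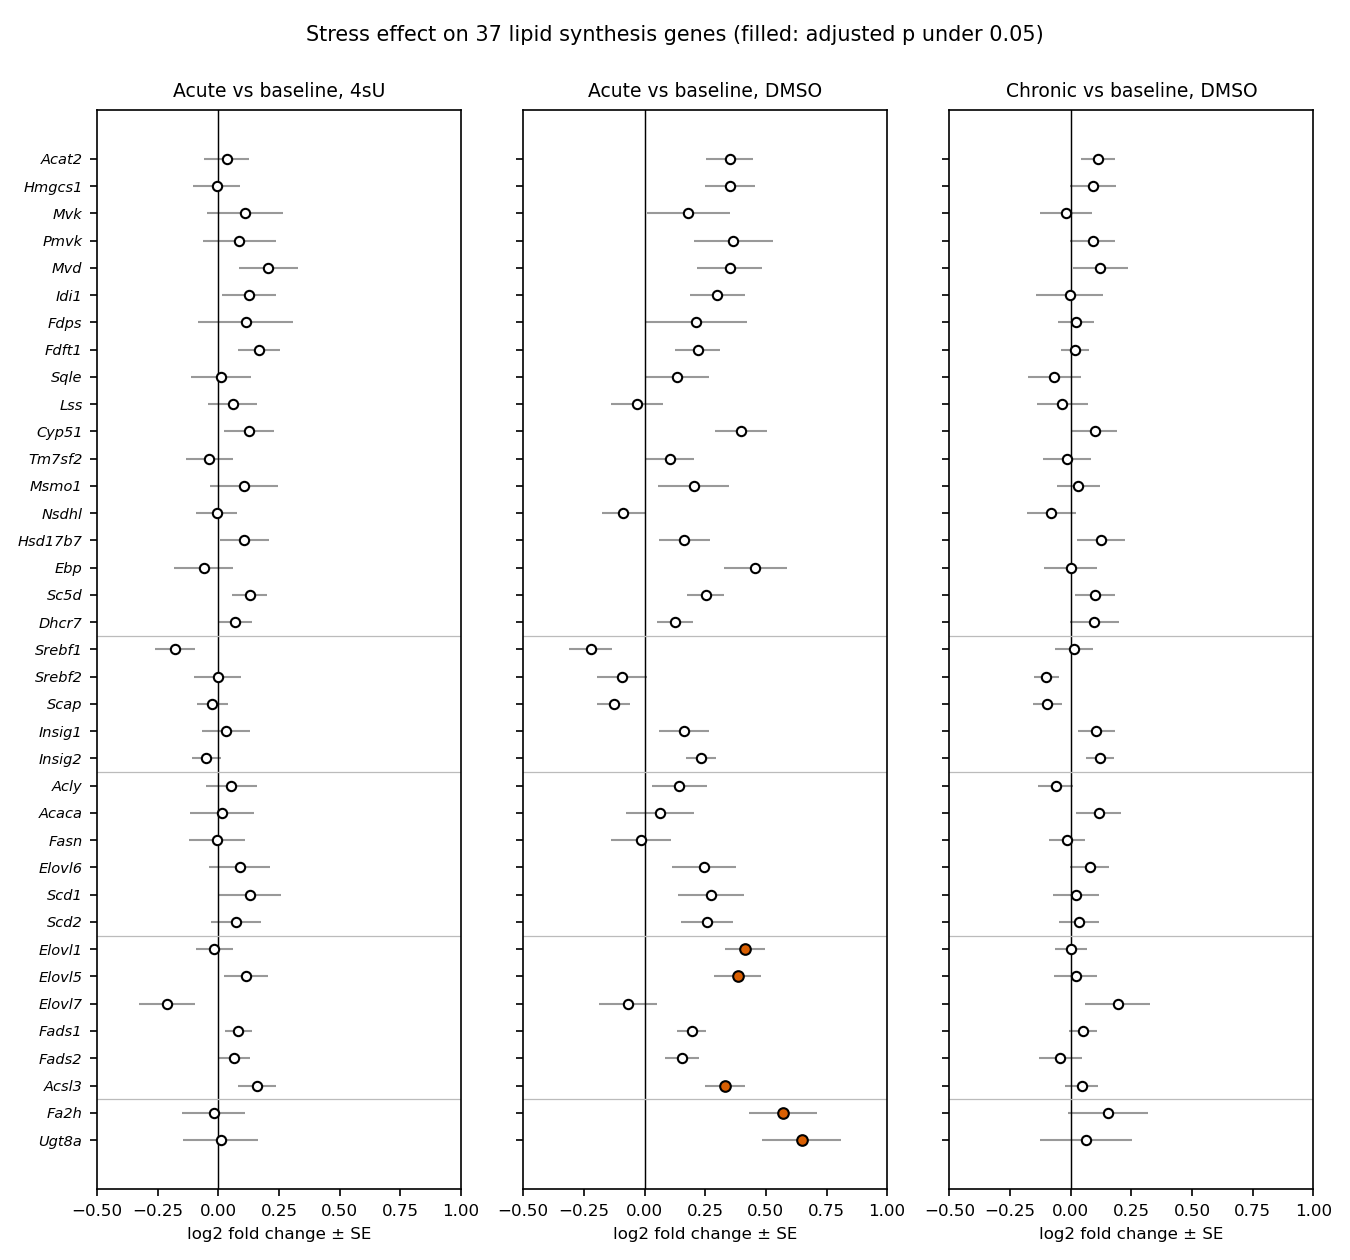
Log2 fold change and SE of the 37 members, by role, after acute stress in 4sU mice (left), acute stress in DMSO mice (middle) and chronic stress in DMSO mice (right), each against its own baseline; filled points have an adjusted p under 0.05. The 5 filled points are in the middle panel, and the right panel lies between -0.10 and 0.19.

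Chronic stress against baseline in DMSO mice gave 0 members higher and 0 lower, against 0% and 0% of 16096 genes. Here 0 members had an unadjusted p under 0.05, against 913 of all genes, and DESeq2 called 0 members. The log2 fold changes ran from -0.10 to 0.19, with a median of 0.03. Srebf2 stood at 170.8, 165.3, 167.7 and 165.6 CPM at baseline and 148.8, 152.9 and 165.1 CPM after chronic stress, so that the chronic values lay below the baseline ones, with a log2 fold change of -0.10 ± 0.05 (edgeR adjusted p = 0.88). The nearest values were 165.1 CPM after chronic stress and 165.3 CPM at baseline. No other member had groups without overlap. Such genes were not counted over all genes, so this is not read as a result. Scap had -0.10 ± 0.06, Insig2 0.12 ± 0.06, Acat2 0.11 ± 0.07, Elovl7, an elongase of oligodendrocytes, 0.19 ± 0.13 and Ugt8a 0.06 ± 0.19, none past the test.

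Hsd17b7, Sc5d, Acaca, Elovl6, Acly, Fads1 and Acsl3 were the other members with the smallest p of their roles in this comparison, and their log2 fold changes lay between -0.06 and 0.12. The 12 myelin markers gave 0 higher and 0 lower, and their sums, 14124 to 17348 CPM, overlapped the baseline ones. With 3 chronic DMSO libraries, the SE of a member was 0.05 to 0.19 on the log2 scale, which sets the size of difference that could be seen.

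The chronic and acute groups of DMSO mice were also compared directly, which shares their libraries with the comparisons above. Here 0 members were higher and 1 was lower after chronic stress, against 0.711% and 1.07% of 16310 genes. It was Elovl1, at 28.3, 28.7 and 27.9 CPM in the chronic libraries, below every acute value (log2 fold change -0.40 ± 0.08, edgeR adjusted p = 0.0058). Without chronic DMSO library 3 the edgeR adjusted p was 0.071, and in a fit of the compared groups alone 0 members passed. Ugt8a had -0.57 ± 0.18 and Ebp -0.45 ± 0.13 (edgeR adjusted p = 0.11 and 0.089). In the same comparison 8 of the 12 myelin markers were lower and 0 higher, and their part was not tested.

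Among chronically stressed mice 4sU was compared with DMSO within the second set of libraries. Here 0 members were higher and 0 lower, against 0% and 0.049% of 16310 genes, DESeq2 called 0 members, and 1 had an unadjusted p under 0.05. That was Elovl1, at 33.3, 34.3, 33.2 and 34.2 CPM with 4sU, above the 3 DMSO values (log2 fold change 0.25 ± 0.08, edgeR adjusted p = 0.43). Fa2h had 0.30 ± 0.16, Ugt8a 0.32 ± 0.19, Acsl3 0.16 ± 0.09 and Fads2 0.14 ± 0.09. Acat2 had 0.15 ± 0.10, Cyp51 0.15 ± 0.12, Srebf1 -0.10 ± 0.09 and Scd1 0.12 ± 0.15. Of the 12 myelin markers 0 were higher or lower, with a median log2 difference of 0.39. Of them 8 had an unadjusted p under 0.05, a count not given here for all genes. Their sums did not overlap, at 19989 to 21704 CPM with 4sU and 14124 to 17348 CPM with DMSO, and their part in these values was not tested.

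Of the comparisons that cross the 2 sets of libraries, 4sU against DMSO at baseline had 9 members higher and 13 lower, against 20.9% and 22.2% of all genes. Fasn stood at 455.5, 519.3, 518.8, 482.0 and 495.2 CPM with 4sU and 257.5, 244.5, 266.0 and 228.3 CPM with DMSO, a log2 difference of 0.99 ± 0.12 (edgeR adjusted p = 2.7e-07). Srebf2 stood at 287.8, 292.7, 292.5, 284.4 and 274.9 against 170.8, 165.3, 167.7 and 165.6 CPM (0.78 ± 0.10). The other members higher with 4sU were Srebf1 (0.80), Mvd (0.69), Scap (0.67), Mvk (0.61), Pmvk (0.40), Dhcr7 (0.32) and Fads1 (0.23). They hold 3 of the 5 SREBP control genes.

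Lower with 4sU at baseline were Ugt8a (-1.47), Elovl7 (-1.03), Msmo1 (-0.93), Idi1 (-0.91), Acsl3 (-0.73), Elovl6 (-0.53), Hsd17b7 (-0.51), Elovl5 (-0.46), Fa2h (-0.44), Sc5d (-0.43), Scd1 (-0.38), Scd2 (-0.33) and Cyp51 (-0.31). Ugt8a stood at 46.7, 63.8, 71.7, 51.3 and 53.1 CPM with 4sU, all below the lowest DMSO value of 124.5 CPM. Idi1, isopentenyl-diphosphate isomerase, stood at 10.3, 13.1, 9.94, 10.04 and 10.3 against 22.3, 22.5, 18.6 and 17.4 CPM. Of the 12 myelin markers 12 were lower and 0 higher, with a median of -1.15, and their sums were 7012 to 9768 against 13502.5 to 17013 CPM.

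Under acute stress the same contrast had 8 members higher and 19 lower, against 23.9% and 25.3%. Fasn (1.01), Srebf2 (0.88), Srebf1 (0.85) and Scap (0.78) led the higher ones, with Mvd, Mvk, Dhcr7 and Fads1 at 0.13 to 0.56. Ugt8a (-2.09), Elovl7 (-1.16), Idi1 (-1.07), Msmo1 (-1.02) and Fa2h (-1.01) led the lower ones, and the other 14 lay between -0.89 and -0.25. Of the 12 myelin markers 12 were again lower.

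Chronic against baseline in 4sU mice had 18 members higher and 8 lower, against 26.9% and 29.6%, and chronic against acute in 4sU mice likewise 18 and 8, against 23.9% and 23.3%. In the first of these Ugt8a was highest at 1.82 ± 0.17, followed by Elovl7 (1.18), Idi1 (1.03), Msmo1 (0.96), Acsl3 (0.91) and Fa2h (0.87). The 8 lower members were Fasn (-0.96), Srebf1 (-0.91), Srebf2 (-0.89), Scap (-0.71), Mvd (-0.60), Mvk (-0.55), Dhcr7 (-0.26) and Fads1 (-0.16). The chronic 4sU libraries had 237.3 to 298.0 CPM of Fasn and 151.5 to 170.9 CPM of Srebf2, beside 228.3 to 266.0 and 165.3 to 170.8 CPM in baseline DMSO mice. All 12 myelin markers were higher here, with a median of 1.52. These comparisons share their baseline or acute 4sU libraries with those above.

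The chronic effect differed between the arms for 15 members in the higher and 8 in the lower direction, against 18.1% and 19.9% of all genes, with 0 members changed in the DMSO arm. Whether stress, the injection or the division of the libraries gave these differences cannot be told apart. Of the neighbouring pathways, 11 of 14 sphingolipid and myelin lipid genes were higher and 0 lower in chronic against baseline 4sU mice, with Mal (1.76), the ceramide synthase Cers2 (0.96) and the ceramidase Asah1 (0.67) among them. Cyp46a1, the neuronal cholesterol 24-hydroxylase, was lower (-0.85).

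**Figure D3:**
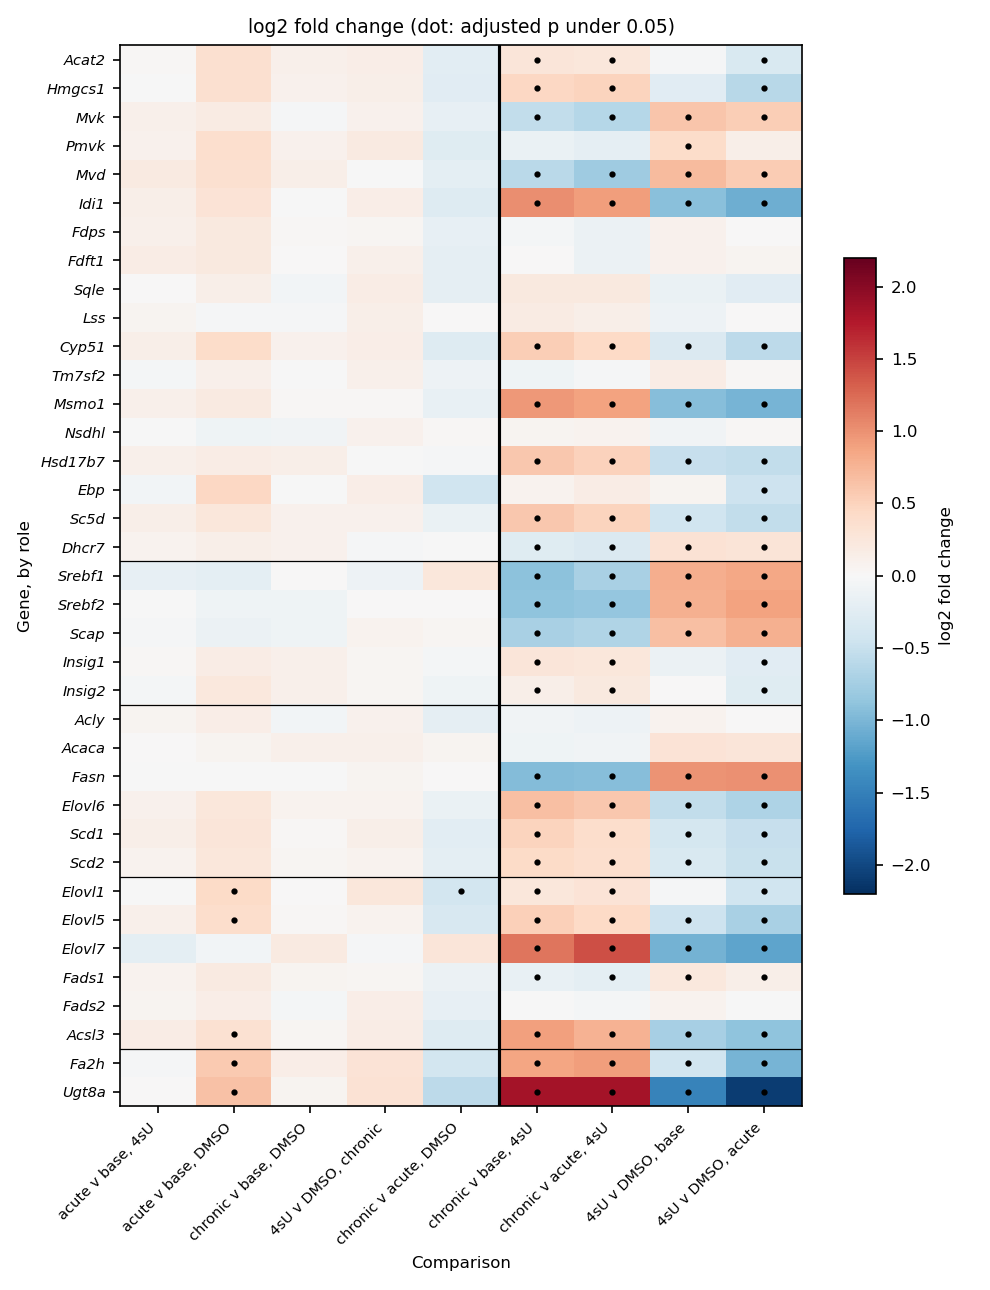
Log2 fold change of the 37 members (rows, by role) in 9 comparisons (columns); dots mark an adjusted p under 0.05. The 5 columns left of the thick line stay within one set of libraries and hold 6 dots, and the 4 right of it cross the division and hold 22 to 27 dots each.

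The reads in 3′ UTR intervals gave a second count of 35 of the 37 members from the same libraries. In the comparisons that cross the division, 4 members had opposite signs in the 2 counts with a passed test in at least 1 of them. Acly had a log2 difference of 0.08 between 4sU and DMSO at baseline in exon counts and of -0.56 in 3′ UTR reads, and Elovl1 of -0.03 and 0.64. In chronic against baseline 4sU mice Elovl1 had 0.26 in exon counts (edgeR adjusted p = 0.0011) and -0.37 in 3′ UTR reads (edgeR adjusted p = 0.012). Fdft1, squalene synthase, had 0.02 and -0.33 there, and Insig2 0.13 and -0.09. In acute against baseline DMSO mice Elovl1 had 0.41 and 0.57 and kept its sign, with an edgeR adjusted p of 0.052 in 3′ UTR reads.

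**Figure D4:**
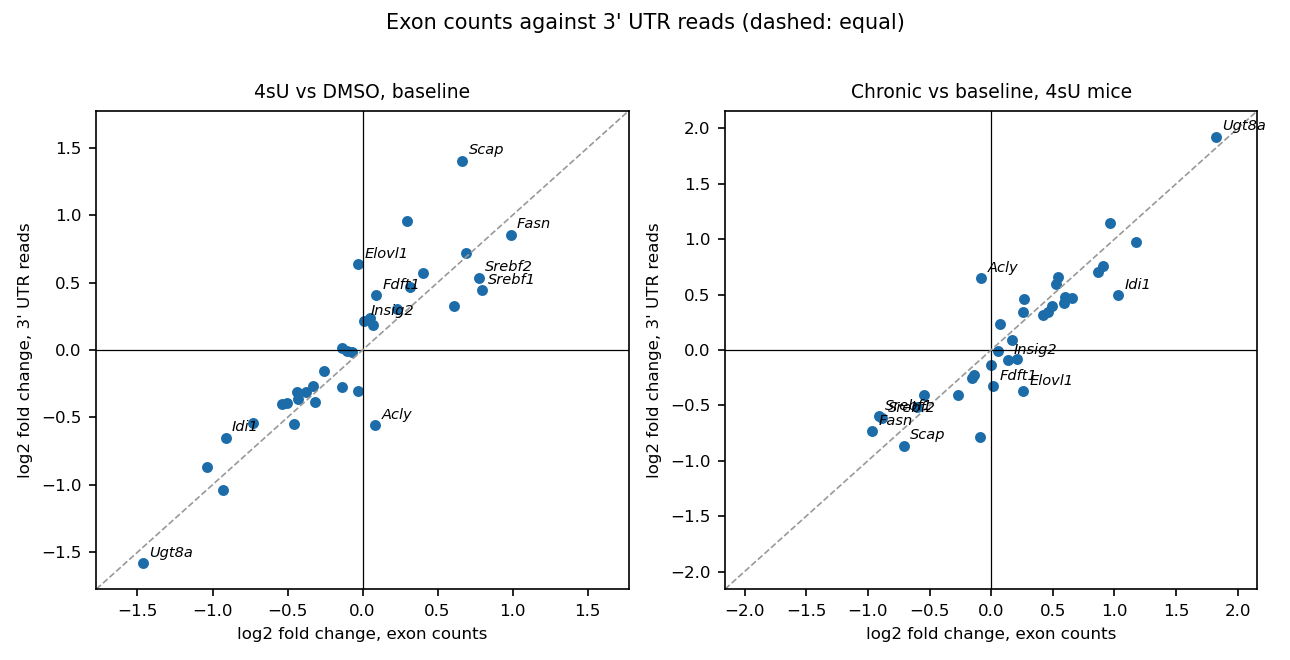
Log2 fold change of the members in exon counts (x axis) and in 3′ UTR reads (y axis) for 4sU against DMSO at baseline (left) and chronic against baseline in 4sU mice (right); the dashed line marks equal values. Acly and Elovl1 lie far from the line, on opposite sides of 0 on the 2 axes.

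T-to-C conversion was used to ask which members carried RNA made after the injection. Rates are conversions per 10000 covered T positions in the gene's 3′ UTR interval, and the DMSO libraries give the background. Over all genes a 4sU library had 4.00 to 7.78 and a DMSO library 2.28 to 3.18 conversions per 10000 T. The coverage over all 6 groups allowed a test of 29 members, and Fdps, Tm7sf2, Scap, Ebp, Mvd, Mvk, Sqle and Pmvk had too little. At baseline 4 of the 29 had a higher rate with 4sU and 0 a lower one, against 7.04% and 0.162% of 8662 genes. Under acute stress it was 7 and 0, against 11.5% and 0.127%, and under chronic stress 8 and 0, against 14% and 0.0808%.

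Scd1, a stearoyl-CoA desaturase, had the highest rate of the members. Its rates were 37.3, 16.8, 20.2, 28.7 and 15.7 per 10000 T in the baseline 4sU libraries, from 175 to 398 conversions each, and 2.83, 2.18, 2.85 and 2.78 in the baseline DMSO libraries. No 4sU value came near the DMSO ones, and the log2 ratio was 3.16 ± 0.25 (edgeR adjusted p = 6.3e-34). The rates were 33.0, 21.4, 30.8, 21.0 and 15.1 with 4sU after acute stress and 18.3, 36.6, 25.9 and 40.6 after chronic stress, with DMSO values of 1.48 to 2.63. By excess of the pooled 4sU rate over the DMSO rate Scd1 ranked 11 of 8662 genes at baseline, 7 after acute and 3 after chronic stress.

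Scd2, its neighbour on chromosome 19 and close relative, had 13.7, 8.67, 9.63, 12.8 and 7.15 per 10000 T in baseline 4sU libraries and 2.51, 2.43, 2.96 and 2.09 in DMSO libraries. The 2 groups were far apart, with a log2 ratio of 2.06 ± 0.21 (edgeR adjusted p = 2.7e-20). Reads shared between such paralogs could not be followed. Its excess, 7.79 per 10000 T, ranked 173, and that of Scd1 was 20.8, while the median of all genes was 0.379.

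Elovl5 and Fads1 completed the 4 members called at baseline. Elovl5 had 13.3, 8.29, 8.03, 11.7 and 8.31 per 10000 T with 4sU and 1.69, 2.19, 1.87 and 3.1 with DMSO (log2 ratio 2.15 ± 0.34, edgeR adjusted p = 1.4e-08). Fads1 had 10.5, 7.25, 6.55, 12.4 and 6.32 against 2.36, 3.24, 2.47 and 3.08 (log2 ratio 1.62 ± 0.28, edgeR adjusted p = 3.9e-07). In both genes every 4sU library lay above every DMSO library.

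Acly, Hmgcs1 and Fads2 were called after acute and after chronic stress. In acute 4sU mice Acly had 8.06, 5.90, 8.85, 5.75 and 7.66 per 10000 T, from 11 to 19 conversions a library, against 0.950 to 3.59 with DMSO (log2 ratio 1.86 ± 0.40). Hmgcs1 had 1.9 to 4.97 against 1.07 to 1.94 (1.18 ± 0.34), so its groups overlapped, and Fads2 had 3.74 to 8.19 against 1.85 to 3.55 (1.00 ± 0.30). Ugt8a was called under chronic stress, and not at baseline or under acute stress, at 3.61, 4.05, 2.40 and 5.95 with 4sU against 1.20, 1.74 and 1.59 (1.41 ± 0.44, edgeR adjusted p = 0.012). Its coverage differed between states. The chronic 4sU libraries held 351055 covered T positions and 141 conversions, against 88447 and 14 at baseline and 99808 and 30 after acute stress. A like difference was thus harder to see in those 2 states. Ugt8a missed the threshold without chronic 4sU library 4 or chronic DMSO library 1, with a highest edgeR adjusted p of 0.1. Under acute stress Hmgcs1 missed it without acute 4sU library 1 (0.058), and Fads2 without that library or acute DMSO library 4 (at most 0.086). Under chronic stress Hmgcs1 missed it without chronic DMSO library 1 (0.056).

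The rate depends on the share of the RNA made since the injection and on the cells that took up 4sU, which these libraries do not separate.

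Rates in 4sU mice were compared between states after rescaling each library to a common overall rate. Over the 4sU libraries alone Pmvk also had enough coverage. Acute against baseline gave 0 of 30 members higher and 0 lower, against 0% and 0% of 8480 genes, with 0 at an unadjusted p under 0.05. Scd1 had a log2 ratio of -0.02 ± 0.14 and Scd2 of -0.02 ± 0.11. Chronic against baseline, which crosses the 2 sets of libraries, gave 0 and 0, against 0.13% and 0.142%. Of the members 4 had an unadjusted p under 0.05, against 620 of all 8480 genes. Fads1 had 0.56 ± 0.19, Fads2 0.63 ± 0.27, Hmgcs1 0.64 ± 0.32, Ugt8a 0.94 ± 0.51 and Scd1 -0.05 ± 0.14, with edgeR adjusted p of 0.39 or more.

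**Figure D5:**
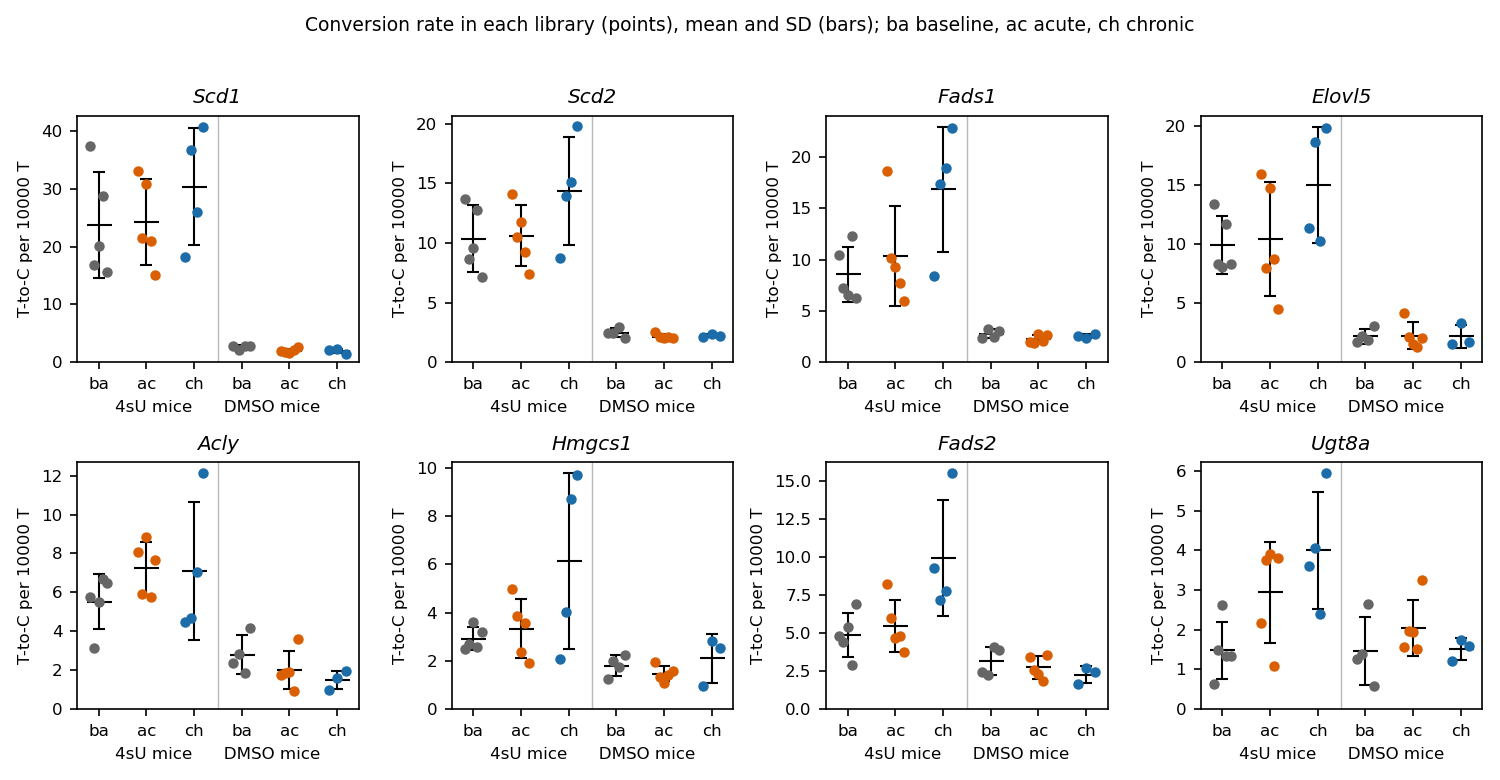
T-to-C conversions per 10000 covered T positions of the 8 called members in each library (points) with mean and SD (bars), 4sU mice on the left and DMSO mice on the right of each panel; each panel has its own axis from 0. In Scd1 the 14 4sU libraries lie between 15.1 and 40.6 and the 12 DMSO libraries between 1.48 and 2.85.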

How the data were processed

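The authors deposited exon counts per gene symbol, whole numbers without normalization, in 2 amygdala tables, and, per the file headers, slamdunk 0.4.3 tables of T-to-C conversion counts in 3′ UTR intervals. Cutadapt 3.1, HISAT2 2.1.0, SAMtools 1.9 and featureCounts 2.0.1 and the mm10 build are named in the submitters' processing notes. No source used here states the strand setting or how multiply matching reads were treated, which leaves overlapping and paralogous genes uncertain. The 9 baseline columns shared by the tables differed in 0 values. The auditory cortex libraries were not used here.

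Counts were tested with edgeR 4.0.16 (R 4.3.3; TMM, filterByExpr, robust quasi-likelihood fit with 1 coefficient per group, Benjamini-Hochberg adjustment over all genes, threshold 0.05). Each stress comparison used the 4 groups of its table and the others all 6. A member is said to rise, fall, be higher or lower, or be called only past that threshold, and log2 fold changes carry their SE. Conversions were tested likewise, with log covered T positions as the offset, in the best covered interval of genes with a mean of at least 2000 covered T positions; 217691230 to 347833440 T positions were covered per library, and a rate resting on few conversions is imprecise. The tests were first tested on simulated data. Tables and figures used Python 3.11.15, pandas 2.3.3, numpy 2.4.6 and matplotlib 3.10.9.

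Members, lists and tests were chosen with earlier results of these data known. Members are named where called or among the 3 smallest p of their role in acute stress, chronic stress of DMSO mice or 4sU against DMSO under chronic stress; other members were named after their values were seen. Of other pathway lists at most 4 called genes each are named, by p; some are not reported here. Replicates are separate samples by label, with nothing on their origin, and the p-values cover only the spread among these libraries, which may be technical. Alternatives were DESeq2 1.42.0 and its size factors, no count filter, 3′ UTR reads, the replicate number as a block, other fits, each library left out and 5 libraries low in glutamatergic markers left out. By replicate number, 7 of 35 pairs correlated over 0.1, so the numbers were not taken to pair samples.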

Additional observations from a re-analysis of the deposited data

Results flagged for a closer look

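Of 185 sets of 4 or 5 libraries of one gene and group, 21 had a library far from the others, where chance alone gives about 1 in 20. The like count over all genes is not given here. In 10 of the 21 the library was acute DMSO library 2, which stood apart from its group over all genes too. It was the highest in Acat2 (51.2 CPM), Mvk (26.3 CPM), Pmvk (45.6 CPM), Fdps (78.9 CPM), Fdft1 (121.8 CPM), Cyp51 (114.8 CPM), Msmo1 (162.1 CPM) and Ebp (29.1 CPM). It was the lowest in Lss (29.8 CPM) and Fasn (150.4 CPM). Acute 4sU library 2 was the highest of its group in Hmgcs1 (210.8 CPM), Dhcr7 (52.8 CPM) and Fa2h (85.3 CPM).

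The other 8 were spread over 8 libraries. In baseline DMSO mice Pmvk was highest in library 2 (23.7 CPM), Mvd lowest in library 3 (11.8 CPM), Acly highest in library 1 (304.0 CPM) and Scd2 lowest in library 4 (2249 CPM). In baseline 4sU mice Idi1 was highest in library 2 (13.1 CPM), Insig2 lowest in library 3 (44.95 CPM) and Acsl3 highest in library 5 (143.5 CPM). In chronic 4sU mice Srebf2 was highest in library 1 (170.9 CPM).

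The chronic stress effect differed between 4sU and DMSO mice, by the interaction test (edgeR adjusted p under 0.05), in 23 members, each a comparison across the division of the libraries. Of all 16096 genes tested, 18.1% passed in the higher and 19.9% in the lower direction. The log2 effect in 4sU mice minus that in DMSO mice was above 0 for Ugt8a 1.76, Idi1 1.03, Elovl7 0.98, Msmo1 0.93, Acsl3 0.86, Fa2h 0.72, Elovl6 0.58, Elovl5 0.50, Sc5d 0.49, Scd1 0.48, Hsd17b7 0.47, Cyp51 0.44, Scd2 0.39, Hmgcs1 0.37, Elovl1 0.26. It was below 0 for Fads1 -0.21, Dhcr7 -0.36, Mvk -0.53, Scap -0.61, Mvd -0.72, Srebf2 -0.78, Srebf1 -0.92, Fasn -0.95. With each of 16 libraries left out in turn, Dhcr7 missed the threshold in 13 fits (edgeR adjusted p up to 0.157) and Fads1 in 11 (up to 0.17), and the other 21 members passed in all 16.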

How the results depend on the processing

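The counts of called members that moved by more than 1.5 times belonged to acute stress, chronic against acute stress in DMSO mice and 1 conversion comparison. For the mean acute effect, with 1 called member, DESeq2 called 7, 3′ UTR reads 0, the fit of all 6 groups 4, and the fit without 5 libraries low in glutamatergic markers 10. For acute stress in DMSO mice, with 5, DESeq2 called 12, no count filter 2, 3′ UTR reads 2, all 6 groups 9, and without the 5 libraries 13. The acute difference between arms went from 0 to 1 without the 5 libraries. Chronic against acute stress in DMSO mice, with 1, had 5 by DESeq2 and 0 with 3′ UTR reads, without the 5 libraries or with only the groups compared. Conversion under acute stress, with 7, had 4 without the 5 libraries. The share of all genes called in these fits and in those below is not given here. The cause of these moves was not tested.

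With the replicate number as a block, the mean acute effect had 3 called members, acute stress in DMSO mice 4 and the chronic difference 21. The numbers did not pair the samples: same-numbered libraries correlated from -0.35 to 0.36, over 0.1 in 7 of 35 pairs.

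With each library left out in turn, counts ran from 0 to 8 for the mean acute effect, 1 to 13 for acute stress in DMSO mice and 0 to 5 for chronic against acute stress in DMSO mice. They ran from 24 to 28 for chronic against baseline and for chronic against acute stress in 4sU mice, 21 to 23 for the chronic difference, 20 to 24 for 4sU against DMSO at baseline and 26 to 29 under acute stress. For conversion they ran from 4 to 5 at baseline, 5 to 7 under acute and 6 to 8 under chronic stress, and the other comparisons stayed at 0. The mean acute count was 0 without baseline 4sU library 1 or 4, baseline DMSO library 1, 2 or 3 or acute 4sU library 2, and 8 without acute DMSO library 2. Chronic against acute stress in DMSO mice had 5 without acute DMSO library 5 and 0 without chronic DMSO library 3.

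With 3′ UTR reads 14 of 420 gene results changed sign and passed the test in at least 1 of the 2 counts. Sign changes without a passed test were not counted. The 14 all crossed the division of the libraries, where most calls lay. In chronic against baseline 4sU mice they were Fdft1 (-0.33), Insig2 (-0.091), Acly (0.65) and Elovl1 (-0.37), and in the chronic difference Acly (0.63) and Elovl1 (-0.39). In chronic against acute 4sU mice they were Insig2 (-0.072), Acly (0.70) and Elovl1 (-0.32). For 4sU against DMSO they were Acly (-0.56) and Elovl1 (0.64) at baseline, and Insig2 (0.035), Acly (-0.79) and Elovl1 (0.051) under acute stress. The cause was not tested. Conversion rates of weakly covered members rest on few conversions, which limits what could be seen in them. Of the calls across the division, those lost with a single library left out were Fads1 (7 of 16 fits), Dhcr7 (3) and Insig2 (1) in chronic against baseline 4sU mice, Insig1 (3 of 26) and Scd1 (1) in chronic against acute 4sU mice, Pmvk (5), Scd1 (2), Cyp51 (1) and Fa2h (1) for 4sU against DMSO at baseline, and Fads1 (18) and Insig1 (3) under acute stress.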
